A study of Homo sapiens with 8 samples.

Results

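The genes described here are 9 growth suppressors known from cancer cells as silenced by EZH2 or induced by 3-deazaneplanocin A (DZNep), namely FBXO32, CDKN2A, CDKN2B, CDKN1B, RUNX3, KLF2, DAB2IP, CNR1 and IGFBP3. They were taken by name from that literature, with earlier results of these data known. They are 9 of the 57500 genes in the count table. RNAseq was done on HEK293T cells, a human embryonic kidney line carrying the SV40 large T antigen, of which 4 libraries came from cells given 100 µM DZNep over 48 h and 4 from cells given vehicle alone (Control). No allele or agent other than DZNep separated the groups, all 8 libraries came from this single line, and each group has replicate numbers 1 to 4. The study calls them biological replicates without saying that they came from separate cultures, so the p-values measure the spread between these libraries. The sample labels give DMEM as the medium and the study's methods RPMI. Of the 9 genes, 8 passed edgeR's filter on low counts and were tested among 19171 genes, and CNR1 did not.

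EZH2 is the catalytic subunit of Polycomb repressive complex 2 (PRC2), which also needs EED and SUZ12 and trimethylates lysine 27 of histone H3, a mark of silent genes. DZNep is an adenosine analog that blocks S-adenosylhomocysteine hydrolase, so that S-adenosylhomocysteine, a product inhibitor of methyltransferases, builds up. It acts on methylation in general and not on EZH2 alone. In several tumors, the genes of this list are held low by PRC2, and their products slow the cell cycle, degrade or restrain growth signals, or sequester growth factors.

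Library totals lay between 25043058 and 44902779 counts, with the lowest total in Control replicate 1. Mitochondrial genes took 7.76%, 3.02%, 3.16% and 13.7% of the counts of Control replicates 1 to 4, and 7.04%, 4.25%, 4.44% and 10.1% of those of DZNep replicates 1 to 4. Replicates 1 and 4 were therefore the high ones in both groups. The HEK293T markers PAX2, LHX1, NEFL, NEFM, INA, VIM, KRT8 and KRT18 were each above 3 counts in at least 1 library of each group. Of these, KRT8 was called higher (log2 fold change 2.44) and LHX1 lower (-1.43). The summed level of 10 markers of blood, stromal, endothelial, liver and islet cells was 443 to 680 in Control and 955 to 1099 in DZNep libraries. In DZNep replicate 3, LUM by itself stood at 545 normalized counts, and LYZ, described below, was high in DZNep replicate 2 alone. Of the 7 of these 10 markers that were tested, 5 had a positive and 2 a negative log2 fold change. LUM and CDH5 were called higher and none lower. CD3E, CDH5 and ALB had at most 3 counts in every Control library and INS in every DZNep library. Whether other cells were present was not tested, and in bulk RNA fewer cells of a type and less RNA per cell cannot be told apart.

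Of the 8 growth suppressors tested, 0 passed both thresholds of the study, an adjusted p below 0.05 with a log2 fold change beyond 1 or -1, in either direction. Over all genes tested, 10.6% were called higher and 13.5% lower with the same edgeR test. At an unadjusted p under 0.05 the number was 3, with no share over all genes taken at that cut. By both thresholds, DESeq2 and limma also called 0. On the adjusted p-value alone, 2 of the 8 were higher (FBXO32 and CDKN1B) and 1 was lower (RUNX3), where the share over all genes was 19.1% higher and 21.8% lower. These 3 were also those whose 4 DZNep libraries did not overlap the 4 Control libraries, which held for 19.5% of all genes in the higher and 19.4% in the lower direction. The log2 fold changes were positive for 5 genes and negative for 3, between -0.80 (RUNX3) and 0.56 (KLF2). Their median was 0.18, beside -0.03 over all genes tested. The 95% intervals of FBXO32, CDKN1B, CDKN2A, CDKN2B and DAB2IP lay inside -1 to 1, while those of the other 3 reached past 1 or -1.

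**Figure D1:**
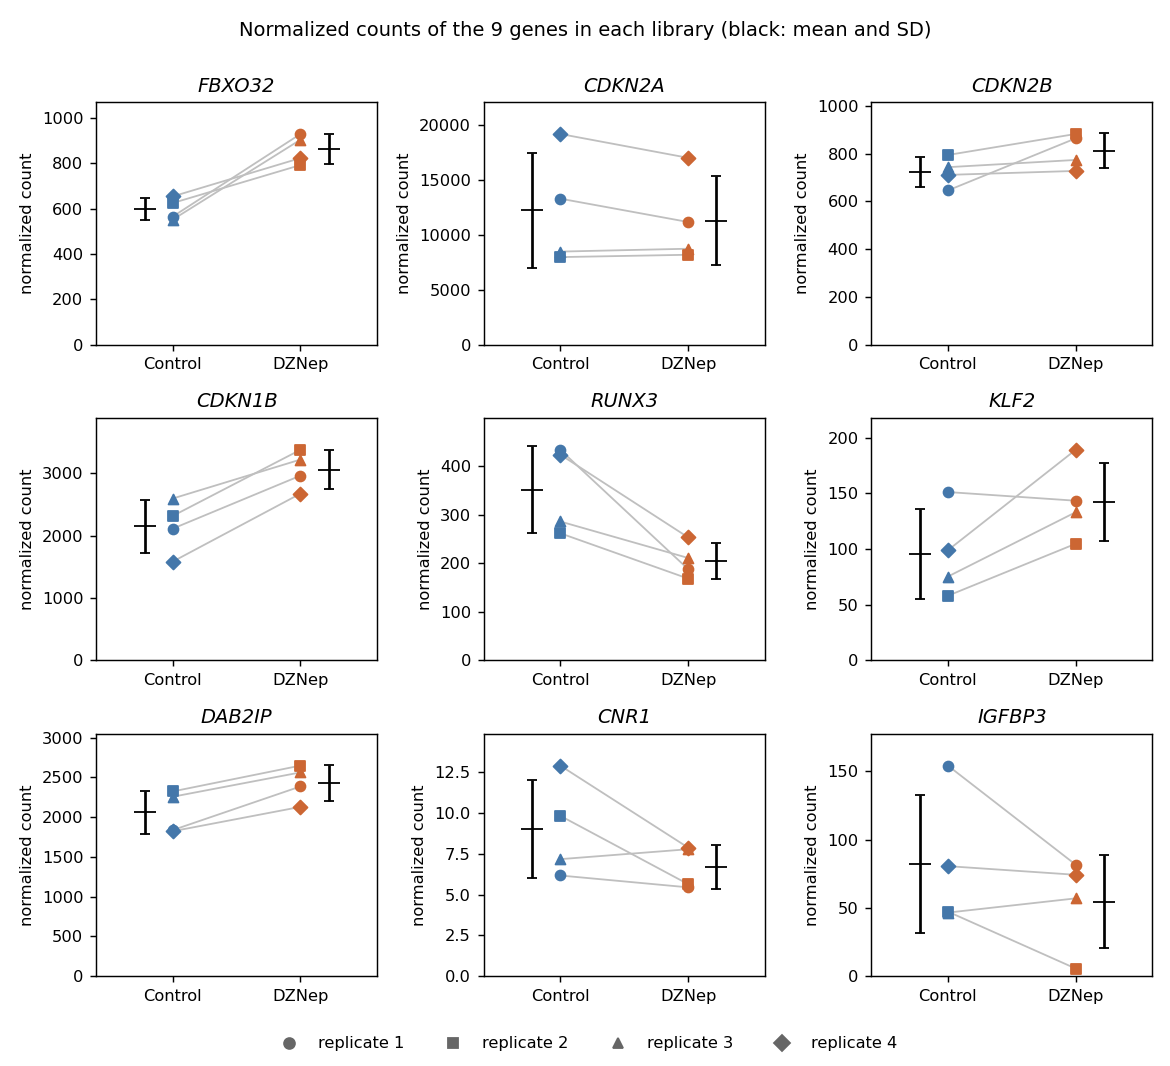
Normalized counts of the 9 genes in the 4 Control (blue) and 4 DZNep (orange) libraries, 1 panel per gene with a linear axis from 0. Symbols mark the replicate number, grey lines join equal numbers, and black bars are mean and SD. FBXO32 and CDKN1B lie higher and RUNX3 lower in every DZNep library, and the groups of the other 6 genes overlap.

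CDKN1B encodes p27, an inhibitor of CDK2 complexes that holds cells in G1. It lies at chr12:12685498-12722369 on the plus strand (GENCODE annotation of GRCh38). Its normalized counts, that is the counts divided by the size factor deposited for each library, were 2109, 2312, 2592 and 1581 in Control replicates 1 to 4 and 2958, 3372, 3216 and 2671 in DZNep replicates 1 to 4. Every DZNep library was above every Control library, and replicate 4 was the lowest of both groups. The mean was 2149 ± 427 (SD, n = 4) in Control and 3054 ± 307 in DZNep cells, a log2 fold change of 0.48 (SE 0.17, 95% interval 0.10 to 0.86) with an adjusted p of 0.0453 in edgeR's quasi-likelihood test. A two-sided exact permutation test gave p = 0.0286, the smallest that 4 against 4 libraries allow. This call was close to the threshold. The adjusted p was between 0.0538 and 0.112 without Control replicate 1, 2 or 4 or DZNep replicate 1, 2 or 3. Blocking on the replicate number gave 0.00168. The flanking genes CREBL2 (log2 fold change 0.21, adjusted p = 0.489) and APOLD1 (-0.05, adjusted p = 0.845) did not pass, nor did GPR19, which overlaps CDKN1B on the other strand (-0.16, adjusted p = 0.635).

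CDKN2A encodes p16, an inhibitor of CDK4 and CDK6, and from another first exon p14ARF, which restrains MDM2. CDKN2B next to it encodes p15, a further inhibitor of these kinases. The 2 starts of CDKN2A in RefSeq are shown because the table holds a single count per gene, so that reads of p16 and p14ARF transcripts were summed and cannot be told apart, and the promoters of CDKN1B and RUNX3 because these 2 genes passed the adjusted p-value in opposite directions. Each window runs from 250 bases before to 50 bases after a start, 5′ to 3′ on the strand of the gene, from RefSeq GRCh38.p14, with every CG dinucleotide (CpG) in capitals.
CDKN2A, chr9:21974808-21975107, minus strand: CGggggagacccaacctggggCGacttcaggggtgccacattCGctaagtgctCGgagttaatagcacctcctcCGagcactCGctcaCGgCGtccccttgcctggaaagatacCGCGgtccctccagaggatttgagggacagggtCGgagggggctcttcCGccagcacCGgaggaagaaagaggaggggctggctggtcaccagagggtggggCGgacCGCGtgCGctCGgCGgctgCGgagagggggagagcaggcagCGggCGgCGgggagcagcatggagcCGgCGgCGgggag
CDKN2A, chr9:21995275-21995574, minus strand: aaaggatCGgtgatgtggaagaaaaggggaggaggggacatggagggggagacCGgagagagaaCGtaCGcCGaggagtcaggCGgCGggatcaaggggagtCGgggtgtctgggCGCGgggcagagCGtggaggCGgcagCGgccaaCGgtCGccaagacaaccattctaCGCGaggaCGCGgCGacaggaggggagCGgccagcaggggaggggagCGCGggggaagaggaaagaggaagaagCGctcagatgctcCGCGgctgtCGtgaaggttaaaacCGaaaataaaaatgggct
CDKN1B, chr12:12717118-12717417, plus strand: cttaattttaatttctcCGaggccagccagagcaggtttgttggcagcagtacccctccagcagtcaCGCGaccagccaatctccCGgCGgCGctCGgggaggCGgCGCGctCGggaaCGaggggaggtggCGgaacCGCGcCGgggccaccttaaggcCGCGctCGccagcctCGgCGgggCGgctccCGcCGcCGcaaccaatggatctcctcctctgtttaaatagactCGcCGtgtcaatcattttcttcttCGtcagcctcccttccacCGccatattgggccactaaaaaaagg
RUNX3, chr1:24930227-24930526, minus strand: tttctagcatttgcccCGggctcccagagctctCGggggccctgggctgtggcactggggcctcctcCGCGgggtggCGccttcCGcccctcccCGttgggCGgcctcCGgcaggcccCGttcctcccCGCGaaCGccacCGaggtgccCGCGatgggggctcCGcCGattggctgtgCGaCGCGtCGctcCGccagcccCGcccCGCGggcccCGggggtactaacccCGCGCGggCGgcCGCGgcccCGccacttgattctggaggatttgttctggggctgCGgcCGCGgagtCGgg
RUNX3, chr1:24964961-24965260, minus strand: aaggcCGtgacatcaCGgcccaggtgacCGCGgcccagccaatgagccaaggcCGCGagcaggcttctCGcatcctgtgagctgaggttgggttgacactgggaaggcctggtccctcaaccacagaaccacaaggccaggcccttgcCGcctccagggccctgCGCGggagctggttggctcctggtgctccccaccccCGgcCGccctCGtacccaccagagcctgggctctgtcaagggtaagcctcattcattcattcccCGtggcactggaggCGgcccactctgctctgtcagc
The windows hold 26 and 28 CpG for CDKN2A, 29 for CDKN1B, and 38 and 15 for RUNX3. RefSeq's table held 17 windows for 8 of the 9 genes, FBXO32 being the exception. Of these 17 windows, 12 had a GC content of at least 50% and a ratio of observed to expected CpG of at least 0.6. Over all 35116 windows of the table the share was 46.9% and the median number of CpG was 14. Each of the 8 genes had at least 1 window within both limits. Several of these genes had more than 1 window, and no share per gene was taken over all genes. KLF2 had the most CpG of the 17 windows, 49, more than 98.4% of all windows. CDKN1B, which was higher, and RUNX3, which was lower, each had a window within both limits, and the RUNX3 window with 15 CpG was outside them. Methylation at these windows was not analysed here.

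CDKN2A, at chr9:21967752-21995301 on the minus strand, had 13270.1, 7956, 8458 and 19149 normalized counts in Control replicates 1 to 4 and 11147, 8169, 8717 and 16978 in DZNep replicates 1 to 4. Replicate 4 was the highest and replicate 2 the lowest in both groups, and the groups overlapped over nearly their whole range. The log2 fold change was -0.15 (SE 0.32, 95% interval -0.86 to 0.57, adjusted p = 0.744), and it was 0.15 without Control replicate 4 (adjusted p = 0.711). Per kilobase of exon, CDKN2A was at 79.5 ± 26.1 (SD, n = 4) CPM per kb in Control and 76.8 ± 21.8 in DZNep cells, the highest level of the 9 genes in both. It was thus not silent in the untreated HEK293T cells. CDKN2B, at chr9:22002903-22009305 on the minus strand, had 646, 795, 744 and 711 normalized counts in Control replicates 1 to 4 and 864, 883, 774 and 728 in DZNep replicates 1 to 4. DZNep was higher in each of the 4 pairs of equal number, but the groups overlapped. The log2 fold change was 0.14 (SE 0.14, 95% interval -0.16 to 0.44, adjusted p = 0.449).

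CDKN2B-AS1 (ANRIL), a long noncoding RNA known to bind Polycomb proteins, runs on the opposite strand and overlaps both CDKN2A and CDKN2B. It fell from 79.2 ± 14.4 to 39.1 ± 8.66 normalized counts (log2 fold change -1.04, SE 0.26, adjusted p = 0.00839). Its log2 fold change was -0.93 to -0.97 without Control replicate 3, DZNep replicate 1 or DZNep replicate 4, and -0.95 with library sizes alone, short of the fold threshold at adjusted p-values of at most 0.0358. Whether the counting used strand is not given in the sources used here, so its reads and those of the genes opposite cannot be told apart. On the far side of the locus, DMRTA1, the next tested gene at 438 kb from CDKN2B, rose from 61.5 ± 16.3 to 216 ± 28.6 (log2 fold change 1.80, adjusted p = 0.000214). CDKN2A-DT, on the strand opposite CDKN2A, ends next to the 3′ end of that gene. It was at 18.7 ± 10.4 and 17.9 ± 9.19 (log2 fold change -0.10, adjusted p = 0.899).

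Among 5 further CDK inhibitors, 1 was called higher and none lower, with a median log2 fold change of 0.32. The one called was CDKN2D, which encodes p19 of the same INK4 family as p15 and p16. CDKN2D had 276, 202, 221 and 295 normalized counts in Control and 697, 565, 616 and 802 in DZNep replicates 1 to 4, a log2 fold change of 1.40 (SE 0.18, adjusted p = 0.000247). All its DZNep libraries lay above all Control libraries. With the replicate block, 3 of the 5 were higher and 2 lower on the adjusted p-value, beside 28.8% and 30.2% of all genes. The 2 lower ones, named after their values had been seen, were CDKN1A (-0.41, adjusted p = 0.0102) and CDKN3 (-0.36, adjusted p = 0.0144). Of 13 kinases, cyclins and pocket proteins of the G1 pathway on which these inhibitors act, 1 was called lower and none higher (median -0.14). That gene was RB1, the retinoblastoma protein, which fell from 2293 ± 613 to 921 ± 170 (log2 fold change -1.34, SE 0.22, adjusted p = 0.000903).

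FBXO32 (atrogin-1), at chr8:123497889-123541206 on the minus strand, is the substrate receptor of an SCF ubiquitin ligase known from muscle wasting and a direct PRC2 target in breast cancer cells treated with DZNep. Its normalized counts were 564, 624, 551 and 653 in Control replicates 1 to 4 and 929, 792, 903 and 822 in DZNep replicates 1 to 4. The groups were well apart and the spread within each was small, with the highest library at most 1.19 times the lowest. The mean was 598 ± 48.6 (SD, n = 4) in Control and 862 ± 65.0 in DZNep cells. The log2 fold change was 0.50 (SE 0.13, 95% interval 0.20 to 0.80, adjusted p = 0.0133), or 1.41-fold, and DZNep was higher in 4 of 4 pairs of equal number. Among all genes tested, 24.5% had a higher log2 fold change than FBXO32. The adjusted p stayed between 0.0141 and 0.0451 when any single library was dropped.

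Of 9 tested SCF subunits, FBXO32 relatives and FOXO factors, which drive FBXO32 transcription in muscle, 1 was called higher and none lower (median 0.14). The number called higher was 2 without Control replicate 2 or without DZNep replicate 4, and 0 with limma or with at least 10 reads in every library, where FBXO40 gave no value. FOXO4 was higher in every DZNep library without reaching the fold threshold (0.92, adjusted p = 0.00381), and was named after its value had been seen. The call was FBXO40, a muscle F-box gene, with 0, 2, 0 and 0 reads in Control replicates 1 to 4 and normalized counts of 14.5, 23.4, 19.9 and 11.2 in DZNep replicates 1 to 4. No fold is given for FBXO40, since its Control libraries lay at the detection floor. Beside FBXO32 on chromosome 8, NTAQ1 at 27.9 kb was lower (log2 fold change -0.58, adjusted p = 0.0148, fold threshold not reached) and FAM91A1 at 227 kb did not pass (0.63, adjusted p = 0.114), but was higher on the adjusted p-value with the replicate block (0.68, adjusted p = 0.000251).

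RUNX3, a DNA-binding Runt factor that acts with CBFB and restrains growth downstream of TGF-beta, lies at chr1:24899511-24965121 on the minus strand, and its RefSeq promoters are printed above. It was the only one of the 8 genes that was lower by the adjusted p-value. Its normalized counts were 433, 262, 286 and 423 in Control replicates 1 to 4 and 188, 168, 211 and 253 in DZNep replicates 1 to 4. The highest DZNep library, replicate 4, was below the lowest Control library, replicate 2, by a small margin. The mean fell from 351 ± 89.9 to 205 ± 36.5 (SD, n = 4), a log2 fold change of -0.80 (SE 0.22, 95% interval -1.29 to -0.31, adjusted p = 0.0147, exact permutation p = 0.0286), and the fold threshold was not reached. Without DZNep replicate 1 the adjusted p was 0.0518. Among all genes tested, 19.7% had a lower log2 fold change.

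RUNX1, RUNX2 and CBFB all had positive log2 fold changes (0.15 to 0.91, median 0.41), and 0 of these 3 passed both thresholds with edgeR, DESeq2 or limma. At an unadjusted p under 0.05 there were 2, both higher, with no share over all genes taken at that cut. On the adjusted p-value alone 2 were higher, beside 19.1% of all genes. RUNX2, the bone factor of the family, came closest to the fold threshold at 0.91 (adjusted p = 0.0129), and without DZNep replicate 4 there was 1 call among the 3 genes. The flanking genes CLIC4 (0.50, adjusted p = 0.230) and SYF2 (0.26, adjusted p = 0.541) did not pass. With the replicate block both were higher on the adjusted p-value, CLIC4 at 0.57 (adjusted p = 0.00672) and SYF2 at 0.34 (adjusted p = 0.0305). The overlapping RUNX3-AS1 and MIR6731 had 0 reads in all 8 libraries.

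KLF2, at chr19:16324826-16328685 on the plus strand, is a zinc finger factor that induces CDKN1A and keeps endothelial cells and T cells quiescent. Its normalized counts were 151, 58.0, 75.2 and 98.8 in Control replicates 1 to 4 and 143, 105, 133 and 189 in DZNep replicates 1 to 4. DZNep was higher in 3 of the 4 pairs of equal number, but Control replicate 1 reached into the DZNep range. The log2 fold change was 0.56 (SE 0.31, 95% interval -0.13 to 1.24, adjusted p = 0.179). With the replicate number as a block it was 0.60 with an adjusted p of 0.0246, and without Control replicate 1 it was 0.84 with an adjusted p of 0.0471. At this spread between libraries a rise of KLF2 of up to 1.24 on the log2 scale lay within the interval, as did no rise.

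Of 14 further KLF factors tested, 1 was called higher and 2 lower, with a median log2 fold change of 0.57. KLF9, a target of glucocorticoid and thyroid hormone receptors, rose from 2982 ± 843 to 6427 ± 1797 normalized counts (log2 fold change 1.08, adjusted p = 0.00946). Its log2 fold change was 0.90 without Control replicate 4 and 0.98 without DZNep replicate 3, under the fold threshold. KLF15, a regulator of gluconeogenic and amino acid genes, had 698, 438, 581 and 545 in Control and 20.9, 18.5, 31.1 and 24.7 in DZNep replicates 1 to 4. It was thus lower in every DZNep library, by 4.59 on the log2 scale (log2 fold change -4.59, SE 0.24, adjusted p = 2.97e-06). KLF14 fell from 48.9 ± 11.7 to 21.9 ± 7.58 (log2 fold change -1.18, adjusted p = 0.0175), or -0.996 without DZNep replicate 2. The neighbours of KLF2, AP1M1 (-0.38, adjusted p = 0.0552) and EPS15L1 (0.08, adjusted p = 0.687), did not pass, and AP1M1 was lower on the adjusted p-value with the replicate block (-0.39, adjusted p = 0.00964).

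DAB2IP, at chr9:121567057-121785530 on the plus strand, is a RAS GTPase-activating protein and a scaffold of apoptotic signaling that EZH2 silences in prostate cancer. Its normalized counts were 1836, 2322, 2256 and 1822 in Control replicates 1 to 4 and 2385, 2647, 2562 and 2128 in DZNep replicates 1 to 4. DZNep was higher in 4 of 4 pairs of equal number, and only DZNep replicate 4 was below the highest Control libraries. The log2 fold change was 0.21 (SE 0.14, 95% interval -0.11 to 0.53, adjusted p = 0.270). With the replicate number as a block it was 0.22 with an adjusted p of 0.105.

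Of 10 further RAS GTPase-activating proteins and partners tested, 1 was called lower and none higher (median -0.01). This was RASA3, a GAP for RAP1 and RAS, which fell from 291 ± 31.7 to 58.2 ± 11.8 (log2 fold change -2.35, SE 0.20, adjusted p = 2.64e-05). TTLL11, 30.1 kb beyond DAB2IP, was lower without reaching the fold threshold (-0.93, adjusted p = 0.0151), and was past it without Control replicate 1 (-1.04) or Control replicate 4 (-1.10). The noncoding ENSG00000227355 on the other side did not pass (-0.42, adjusted p = 0.160).

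IGFBP3, at chr7:45912245-45921874 on the minus strand, encodes a secreted protein that binds insulin-like growth factors and keeps them from their receptor. Its normalized counts were 154, 47.3, 46.6 and 80.6 in Control replicates 1 to 4 and 81.6, 5.64, 57.0 and 74.2 in DZNep replicates 1 to 4. Control replicate 1 was the highest library, and DZNep replicate 2, with 7 reads, was far below the other 7 libraries, which held 52 to 100 reads. The log2 fold change was -0.60 (SE 0.64, 95% interval -2.03 to 0.82, adjusted p = 0.485), the widest interval of the 8 genes. Without DZNep replicate 2 it was -0.21 (adjusted p = 0.745), and without Control replicate 1 it was -0.13 (adjusted p = 0.898).

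**Figure D2:**
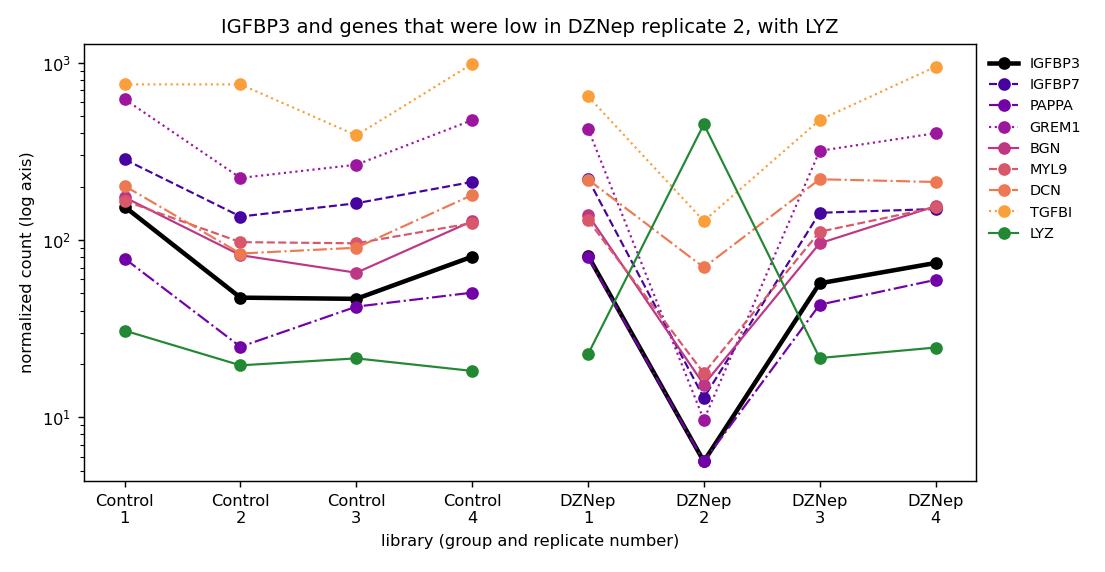
Normalized counts (log axis) of IGFBP3, 7 other genes and LYZ in the 8 libraries, with the group and replicate number on the horizontal axis. In DZNep replicate 2 all but LYZ are at their lowest level of the 8 libraries, IGFBP3 at 5.64, while LYZ is at its highest, 450.2.

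IGFBP3 did not stand alone in DZNep replicate 2. IGFBP7, which also binds insulin-like growth factors, was at 12.9 normalized counts there and at 136 to 285 in the other libraries, and PAPPA, a protease that cleaves IGFBP4, was at 5.64, below each of the other 7. The secreted matrix proteins TGFBI (128 against 390 to 986) and DCN (70.1 against 83.9 to 220.2) were lowest in that library too. LYZ, a lysozyme of myeloid cells, was at 450.2 there against 18.3 to 30.8 elsewhere, and CXCL9, an interferon-induced chemokine, at 136 against at most 0.91. These genes were looked up after the IGFBP3 values had been seen. The part of this library's make-up in the IGFBP3 value was not tested.

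Of 14 tested genes of the IGF system, 1 was called higher and 4 lower, with a median log2 fold change of -0.28. PAPPA2, a protease of IGFBP3 and IGFBP5, rose from 4.81 ± 1.63 to 43.3 ± 6.95 normalized counts (log2 fold change 3.13, SE 0.34, adjusted p = 9.84e-05). Its Control libraries were near the detection floor, down to 3.22 normalized counts in replicate 4, so the size of the fold is uncertain. With at least 10 reads in every library PAPPA2 gave no value. IRS2, an adaptor of the insulin and IGF receptors, fell from 526 ± 134 to 185 ± 21.4 (-1.54, adjusted p = 0.000305). The binding proteins IGFBP5 (3311 ± 89.0 to 1434 ± 332, log2 fold change -1.23, adjusted p = 0.000421) and IGFBP2 (4915 ± 1415 to 2241 ± 663, -1.16, adjusted p = 0.00603) fell as well. The remaining call was IGF2, a ligand, with overlapping groups (187 ± 105 to 88.8 ± 15.4, -1.10, adjusted p = 0.0393), named after its value had been seen, which was at -0.94 with the replicate block, under the fold threshold. IGFBP2 was at -0.97 without Control replicate 4 and without DZNep replicate 2, under the fold threshold. Over the leave-one-out fits 2 to 4 genes of the system were called lower. GTF2IP13, a pseudogene 129 kb from IGFBP3 with near-identical copies, was lower (-1.15, adjusted p = 0.00332), its reads being uncertain for that reason, and was at -0.95 without Control replicate 1. TNS3, the nearest tested gene on the other side at 1353 kb, was at 0.01 (adjusted p = 0.972).

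CNR1, the cannabinoid receptor of the nervous system, at chr6:88139864-88166347 on the minus strand, was close to the detection floor. It had 4, 11, 8 and 12 reads in Control replicates 1 to 4 and 6, 7, 9 and 7 in DZNep replicates 1 to 4, or 6.17, 9.82, 7.17 and 12.9 and 5.44, 5.64, 7.77 and 7.87 normalized counts. The groups overlapped. It had a value under 2 alternatives alone, DESeq2 with a log2 fold change of -0.45 (SE 0.58, adjusted p = 0.589) and all genes with at least 1 read with -0.44 (SE 0.55, adjusted p = 0.576). Its level was 0.036 CPM per kb in Control and 0.028 in DZNep cells, the lowest of the 9 genes. Of 10 tested genes that make, degrade or sense endocannabinoids, 2 were called lower and none higher (median 0.18). These were TRPV1, a cation channel also gated by capsaicin (152 ± 45.9 to 46.6 ± 10.8, log2 fold change -1.74, adjusted p = 0.00104), and ABHD6, a hydrolase of 2-arachidonoylglycerol (623 ± 22.3 to 301 ± 19.0, -1.08, adjusted p = 0.000169), which was at -0.998 with library sizes alone, under the fold threshold. The nearest tested gene on 1 side of CNR1, AKIRIN2 at 438 kb, was higher without reaching the fold threshold (0.84, adjusted p = 0.00101). RNGTT, at 444 kb on the other side, did not pass (0.65, adjusted p = 0.152), but did without Control replicate 2 (1.005, adjusted p = 0.0209), and on the adjusted p-value alone with the replicate block (0.76, adjusted p = 0.000886).

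**Figure D3:**
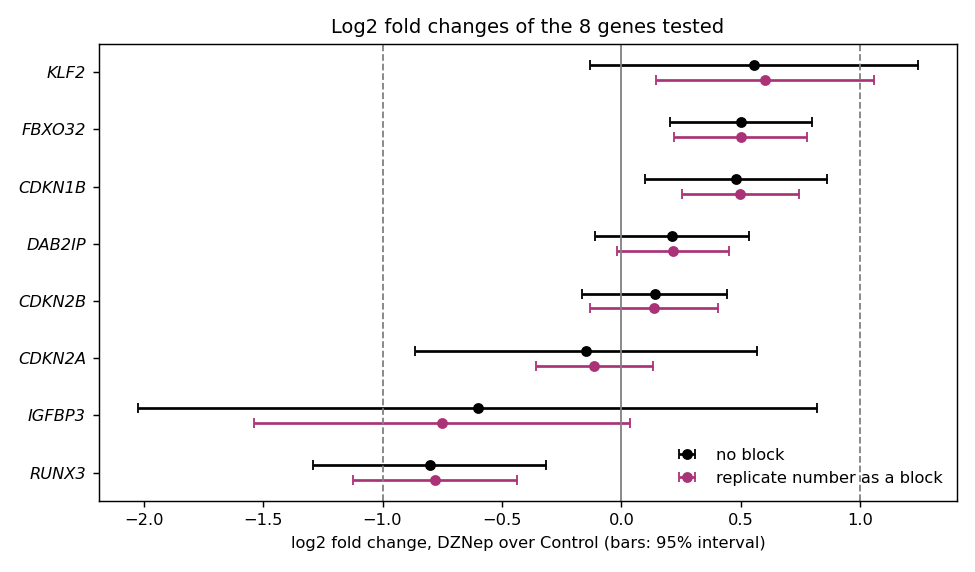
Log2 fold changes, DZNep over Control, of the 8 genes tested with 95% intervals, from the test without (black) and with (purple) the replicate number as a block, and dashed lines at -1 and 1. KLF2, FBXO32 and CDKN1B have the highest and RUNX3 the lowest value, and the intervals of CDKN2A, CDKN2B, DAB2IP and IGFBP3 include 0 in both.

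The levels per kilobase of exon ranked the 9 genes alike in both groups at the ends of the order. In Control cells, CDKN2A was followed by CDKN1B at 6.12 ± 1.70 CPM per kb (SD, n = 4), DAB2IP at 5.41 ± 1.12 and CDKN2B at 4.72 ± 0.70, which overlapped within their SD. Then came FBXO32 at 2.10 ± 0.14 and RUNX3 at 1.83 ± 0.37, which also overlapped, and below them KLF2 at 0.87 ± 0.36 and IGFBP3 at 0.46 ± 0.28, again with an overlap. In DZNep cells, FBXO32 was at 3.15 ± 0.36, while KLF2 at 1.35 ± 0.25 and RUNX3 at 1.12 ± 0.16 had changed places with an overlap within their SD.

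The spread within the groups had a common shape. CDKN2A, KLF2 and IGFBP3 were higher in replicates 1 and 4 than in replicates 2 and 3 of both groups, and RUNX3 in Control. CDKN1B and DAB2IP were lower in replicates 1 and 4 than in replicates 2 and 3 of both groups, and CDKN2B in Control. FBXO32 followed neither order. Replicates 1 and 4 were those with the larger share of mitochondrial counts, given above, and the part of that share in the members' spread was not tested. With the replicate number as a block, which takes up what libraries of equal number share, the SE of the log2 fold change was 0.11 in place of 0.32 for CDKN2A, 0.11 in place of 0.17 for CDKN1B, 0.16 in place of 0.22 for RUNX3 and 0.13 in both fits for FBXO32. By the adjusted p-value alone 3 of the 8 genes were then higher, KLF2 being added, and 1 was lower, where the share over all genes was 28.8% and 30.2%. By both thresholds, 0 of the 8 passed.

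**Figure D4:**
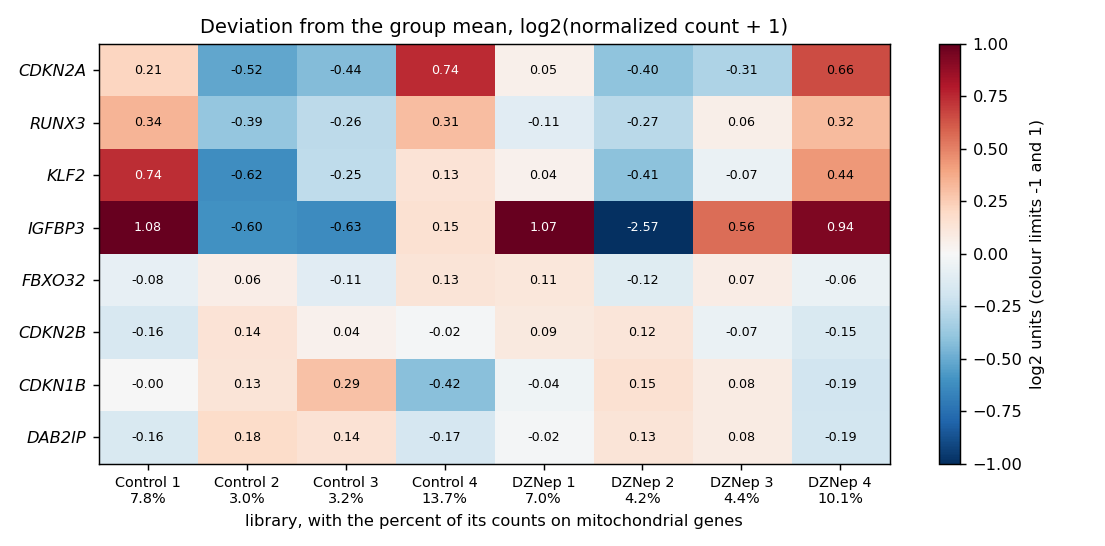
Deviation of the 8 tested genes from their group mean in each library, in log2(normalized count + 1) units, with the percent of counts on mitochondrial genes under each library. CDKN2A, KLF2 and IGFBP3 have positive values in replicates 1 and 4 of both groups, and RUNX3 in those of Control. CDKN1B and DAB2IP have negative values in replicates 1 and 4 of both groups. The lowest value, -2.57 for IGFBP3 in DZNep replicate 2, is beyond the colour limits of -1 and 1.

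The gene whose log2 normalized counts were most like those of each member was sought among the 13623 genes whose mean log2 CPM reached 1 (13624 for IGFBP3). Over the 8 libraries, which all pairs share together with their depth, Pearson's r is a description. It was 0.986 for FBXO32 with KIF9-AS1, 0.995 for CDKN2A with SNRPD2, 0.954 for CDKN2B with GINS1 and 0.999 for CDKN1B with BMI1. It was 0.993 for RUNX3 with ODAD3, 0.987 for KLF2 with GLIPR1-AS1, 0.997 for DAB2IP with SP4 and 0.985 for IGFBP3 with RMI2. BMI1, a subunit of the other Polycomb complex, PRC1, had 3430.05, 3849, 4357 and 2442 normalized counts in Control and 5083, 5830.3, 5358 and 4497 in DZNep replicates 1 to 4 (log2 fold change 0.53, adjusted p = 0.0430), in the same order of libraries as CDKN1B. BMI1 passed the adjusted p in 3 of the 8 leave-one-out fits, where the value reached 0.109. SNRPD2, a core protein of the spliceosome, was highest in replicates 4 and 1 of both groups, as CDKN2A was.

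The RNA levels of PRC2 itself were read in the same fit. EZH2 had 2084, 3007, 2824 and 1664 normalized counts in Control and 2225, 2318, 2271 and 1995 in DZNep replicates 1 to 4, with overlapping groups (log2 fold change -0.15, SE 0.19, adjusted p = 0.570). Its homolog EZH1 (-0.22, adjusted p = 0.367), EED (-0.35, adjusted p = 0.0748) and SUZ12 (0.45, adjusted p = 0.152) did not pass. With the replicate block, EED was lower (-0.35, adjusted p = 0.0185) and SUZ12 higher (0.45, adjusted p = 0.00484) on the adjusted p-value, neither reaching the fold threshold. Of 14 genes of PRC2, its accessory proteins and the H3K27 demethylases, 0 were called by edgeR, DESeq2 or limma, and 1 was called higher with the replicate block. An unadjusted p under 0.05 was reached by 2 that were higher and 1 that was lower, with no share over all genes taken at that cut. On the adjusted p-value alone 1 was higher and none lower, beside 19.1% and 21.8% of all genes. The median of the 14 was -0.14. The call with the block was EZHIP, an inhibitor of PRC2, at a log2 fold change of 1.14 (adjusted p = 0.0308) with the block and 1.03 (adjusted p = 0.125) without it, and JARID2, a PRC2 cofactor, was higher below the fold threshold (0.74, adjusted p = 0.00349). EZHIP and JARID2 were named after their values had been seen. These are RNA levels, and neither EZH2 protein nor histone methylation was analysed here.

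A second list of 26 tested genes known as silenced by EZH2 or PRC2 in other tumors, the secreted WNT antagonists and, shared with the CDK inhibitors above, CDKN1C among them, was read in the same fit. Of these, 7 were called higher and 1 lower, beside 10.6% and 13.5% of all genes, with a median log2 fold change of 0.17. On the adjusted p-value alone 8 were higher and 7 lower, beside 19.1% and 21.8% of all genes. The log2 fold changes were positive for 14 genes and negative for 12. PRDM1, a repressor of B cell growth, rose from 29.4 ± 3.41 to 151 ± 28.1 normalized counts (log2 fold change 2.33, SE 0.23, adjusted p = 5.67e-05). CDH1, E-cadherin, rose from 191 ± 55.3 to 927 ± 226 (2.24, SE 0.25, adjusted p = 0.000105), and NGFR, the p75 neurotrophin receptor, from 43.9 ± 11.5 to 199 ± 51.3 (2.14, SE 0.27, adjusted p = 0.000189). SFRP5, a WNT antagonist, was lower at 14.7 ± 5.90 and 4.06 ± 3.12 (-1.82, adjusted p = 0.0217), but did not pass without Control replicate 1, DZNep replicate 1 or DZNep replicate 2 (adjusted p up to 0.0732). The DZNep libraries of SFRP5 were near the detection floor, so the size of the fold is uncertain. With limma or with at least 10 reads in every library SFRP5 gave no value. The number called higher was 5 without Control replicate 1, DZNep replicate 2 or DZNep replicate 3 and 5 to 8 over all leave-one-out fits. Whether the 2 lists differ was not tested.

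**Figure D5:**
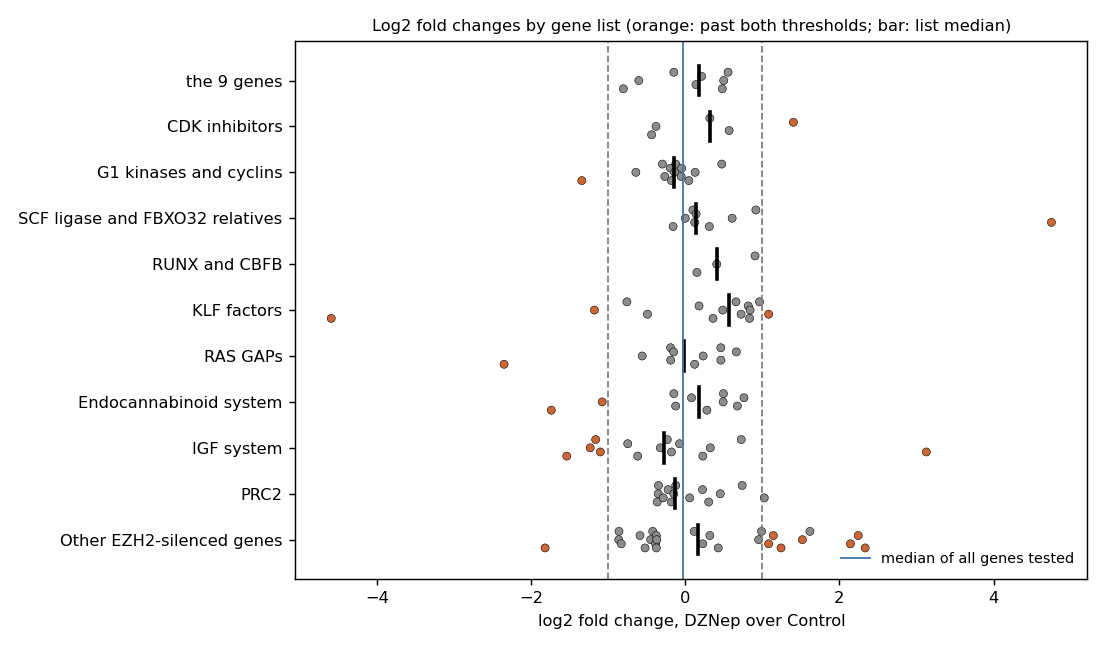
Log2 fold changes, DZNep over Control, of the tested genes of each list, 1 point per gene, orange where both thresholds were passed, with the list median as a black bar and the median of all genes tested as a blue line. The 8 growth suppressors lie between -0.80 and 0.56 with no orange point, while 7 of the other EZH2-silenced genes are orange on the right side and 1 on the left.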

How the data were processed

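RNAseq of 8 HEK293T libraries (4 Control, 4 DZNep) was read from 2 tables that the authors deposited. In the first are counts of 57500 Ensembl genes, made by the authors from paired 150 bp reads with Trimmomatic 0.36, STAR 2.5.2b on GRCh38 and featureCounts of Subread 1.5.2, keeping unique reads within exons. In the second, the authors deposited a signal, normalized counts of the 19118 genes with over 80 counts summed, each being the count over 1 size factor per library. Strandedness and annotation release are not given in the sources used here. Symbols and coordinates came from GENCODE (56410 identifiers matched) and promoter windows from RefSeq GRCh38.p14.

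Genes passing filterByExpr (19171) were tested with edgeR 4.0.16 in R 4.3.3 (TMM, quasi-likelihood test, Benjamini-Hochberg adjustment), and a call needed an adjusted p below 0.05 and a log2 fold change beyond 1 or -1. The code was tested on simulated data. Library pairs within a group differed beyond sampling noise (chi-square per degree of freedom at least 27.1). With totals of 25043058 to 44902779 counts, a count of 0 allows a share of up to 1.2e-05% in the shallowest library, for counting error only. Deviations from group means correlated across all genes between libraries of equal number (0.136, 0.492, 0.429 and 0.673 for replicates 1 to 4), each above 0.1, which was read as a pairing by number. Unequal numbers correlated as well, Control 1 with DZNep 4 at 0.529, more than with DZNep 1, Control 2 with DZNep 3 at 0.398 and Control 3 with DZNep 2 at 0.343, so the block may stand for replicates 1 and 4 against 2 and 3. The main test has no block.

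Alternatives were DESeq2 1.42.0, median-ratio factors, library sizes alone, other count filters, the replicate block, limma 3.58.1 on log2(normalized count + 1) and + 0.1, glmTreat and leaving out each library. The adjusted p alone, with and without the block, was added after seeing the data. The 9 genes and all lists were chosen with earlier results of these data known. Named were the 9 genes, EZH2, EED, SUZ12 and EZH1, up to 3 called genes per list and direction by size, the most similar gene, and flanking and overlapping genes, while others were named after their values were seen. The result of 1 marker gene is not reported here.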

Additional observations from a re-analysis of the deposited data

Results flagged for a closer look

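In 5 of 68 groups of 4 libraries, the highest or lowest library stood apart on the log2 scale, its gap to the next library over the whole range exceeding Dixon's 95% critical value for 4. Chance flags about 5% of groups. Among the growth suppressors this was IGFBP3, low in DZNep replicate 2 at 5.64 normalized counts (gap 0.860). On the linear scale the same gap was 0.676, under Dixon's value. ABHD6 was high in DZNep replicate 3 at 329 normalized counts (gap 0.844) and LUM in Control replicate 2 at 132 (gap 0.904). FBXO40 in Control replicate 2, at 2 reads, and CDH5 in Control replicate 1, at 2 reads, stood apart by a gap of 1 because the other Control libraries held 0 reads.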

How the results depend on the processing

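Under each of 17 alternatives listed with the methods, 0 of the 8 growth suppressors passed both thresholds in either direction. On the adjusted p alone 2 were higher and 1 was lower, and with the replicate block as well 3 and 1. For all genes called higher, the number was 1141 with at least 10 reads in every library, 942 with glmTreat, 3656 on the adjusted p alone and 5528 with the block as well, beside 2041. For all genes called lower, it was 1066, 4171 and 5786 with the last 3 of these, beside 2589. Leaving out 1 library gave 1936 to 2383 higher and 2322 to 2993 lower. With glmTreat, FBXO32 (0.50), CDKN1B (0.48) and RUNX3 (-0.80) no longer passed, since it tests against a log2 fold change of 1. CDKN1B also missed the adjusted p with library sizes alone (0.55, adjusted p = 0.0796) and with all genes of at least 1 read (0.50, adjusted p = 0.103). With 1 library left out, the log2 fold change was 0.35 to 0.58 for CDKN1B, -0.92 to -0.70 for RUNX3, 0.37 to 0.84 for KLF2 and -0.41 to 0.15 for CDKN2A, which was positive without Control replicate 4 alone. KLF2 passed the adjusted p with the replicate block (0.60) and without Control replicate 1. The replicate block changed no other call of the 8 genes on the adjusted p. FBXO32, CDKN2B, DAB2IP and IGFBP3 kept their direction under every alternative that gave a value. Near 0 and without a call, CDKN2A-DT (0.0099) and APOLD1 (0.045) turned positive with library sizes alone, and the leave-one-out fits gave -0.39 to 0.34 for CDKN2A-DT, -0.10 to 0.047 for APOLD1, -0.0094 to 0.17 for EPS15L1, -0.13 to 0.27 for TNS3 and -0.38 to 0.14 for SNRPD2. The causes were not tested. IGFBP3 gave no value with at least 10 reads in every library, nor CNR1 under most alternatives, and their read numbers limit them.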
